A study of Gallus gallus with 9 samples.

Results

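Growth medium (GM) is 1 of 3 culture states in which the RNA of myoblasts from chicken embryo skeletal muscle was sequenced, and it holds 3 of the 9 libraries. GM cells were labelled proliferating and were kept at passage 1 in RPMI-1640 with 15% fetal bovine serum and penicillin/streptomycin. The 3 PM libraries came from passage 1 cells collected directly after serial plating, a step that enriches myoblasts over faster-attaching cells. The 3 DM libraries came from cells labelled differentiated myotubes, at passage 1, after 4 days in RPMI-1640 with 2% horse serum and the same antibiotics. The labels name no breed, no embryo age and no number of days in growth medium, and they do not say whether replicates were separate cultures or embryos. Any p-value here covers just the spread among these 3 libraries per group.

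Myoblasts divide while serum growth factors are plentiful, and they leave the cell cycle, fuse and assemble sarcomeres when serum is withdrawn. MYF5 and MYOD1 are transcription factors that commit cells to muscle, MYOG starts terminal differentiation, and desmin (DES) is the muscle intermediate filament. A dividing cell also spends much of its transcription on ribosome assembly, splicing and chromatin, while a myotube makes contractile protein, calcium-handling membranes and the postsynaptic apparatus of the neuromuscular junction.

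Each gene was compared in GM with the average of the PM and DM means, with PM alone and with DM alone, by edgeR's quasi-likelihood test on read counts with Benjamini-Hochberg adjustment over the 14796 genes tested. A gene was counted as highest in GM when it passed an adjusted p of 0.05 above PM and again above DM, and as lowest when it passed below both. The comparisons with PM and with DM use the same GM libraries, so they are not independent of each other. Levels are in FPKM, fragments scaled by transcript length and library size, and are given for replicates 1, 2 and 3 in that order. A value after ± is an SD over 3 replicates, and log2 fold changes are those of GM over the named group.

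The genes that define muscle cells were present in every library. MYF5 (ENSGALG00000028091, chromosome 1, 40002758 to 40003972, plus strand) was at 359.8, 336 and 185 FPKM in GM, 380.2, 421 and 416 in PM and 34.1, 46.7 and 30.1 in DM. MYF5 was lower in GM than in PM and higher than in DM, with log2 fold changes of -0.62 over PM (SE 0.23, edgeR adjusted p = 0.0408) and 2.93 over DM (SE 0.25, edgeR adjusted p = 1.36e-05). All GM libraries lay below the lowest PM library and above the highest DM library, GM replicate 3 well below the other GM libraries, and without it the values were -0.39 over PM and 3.16 over DM. With PM replicate 1, 2 or 3 left out, the lower level of MYF5 against PM no longer passed (edgeR adjusted p = 0.0647, 0.0895 and 0.101). In all, this call was lost under 8 of 18 alternative settings. With the trend of gene length removed in each library the log2 fold change was -0.33 (edgeR adjusted p = 0.225). MYOD1 was at 259, 214 and 288 FPKM in GM, 332, 321 and 344 in PM and 158, 142 and 136 in DM, again between PM and DM in every library. DES (ENSGALG00000011306, chromosome 7, 22291852 to 22295615, minus strand) was at 613, 541 and 1279 FPKM in GM, 151, 158 and 154 in PM and 149, 145 and 133 in DM, so that all GM libraries lay above the other 6. DES overlaps DNPEP on the other strand, and whether reads were counted by strand is not given in the sources used here.

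Counted reads of Ensembl genes numbered 22792825 to 27110310 per GM library, 15731818 to 20537315 per PM library and 21528951 to 23111863 per DM library. The biological coefficient of variation between replicates was 17.1% in GM, 9.20% in PM and 10.6% in DM. GM replicate 3 stood apart from GM replicates 1 and 2. Its median log2 level of sarcomere genes was 1.02 above their mean, and its median level of mitosis genes was lower by 0.84, lowest of the GM libraries for 38 of 38 genes. It was the highest of the GM libraries for 53.6% of the genes highest in GM and the lowest for 48.6% of those lowest in GM. The PM tables list a different number of features from the GM and DM tables, so PM cells and a difference in how those tables were made cannot be told apart, while GM and DM tables share a format.

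In all, 2295 genes were highest in GM and 2518 were lowest. Of the 14796 genes tested, 32.2% were higher in GM than the average of PM and DM and 32.0% were lower, 64.2% in all. Against PM alone 66.1% were called, 32.0% higher and 34.1% lower in GM. Against DM alone 61.1% were called, 30.3% higher and 30.8% lower. Genes highest in GM made up 15.5% of those tested and genes lowest 17.0%, and these 2 shares are the background for every list below. All 3 GM libraries lay above all 6 others in FPKM for 3251 genes (22.0%) and below them for 2219 (15.0%). The FPKM values are as deposited, without the scaling of counts used in the tests, so levels and tests are on different scales. Tested by limma on log2(FPKM + 0.1), 2770 genes were highest in GM and 2056 lowest. The genes highest in GM differed from the nearer of the other groups by a median of 0.62 on the log2 scale and those lowest by 0.63. Changes of at least 2-fold against both groups numbered 640 among the highest and 566 among the lowest. Under the alternative settings tried, 0 genes changed from highest to lowest or back. The RNA is from whole cultures, so fewer cells of a type and less RNA per cell cannot be told apart.

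**Figure D1:**
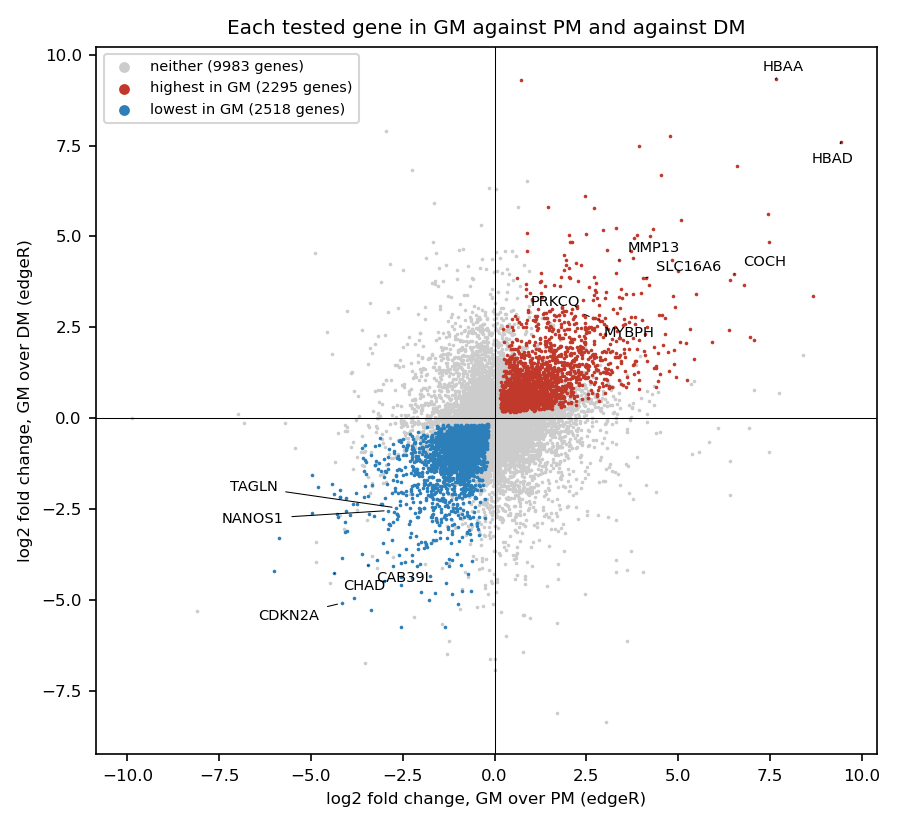
Log2 fold change of GM over PM (x axis) against that of GM over DM (y axis) for each of the 14796 genes tested, with 2295 genes highest in GM in red, 2518 lowest in GM in blue and the rest in grey. Since GM is in both fold changes, the spread along the diagonal is no measure of likeness between the 2 comparisons.

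Among the genes with the largest differences was a transporter gene with low levels in PM and DM. SLC16A6, a member of the monocarboxylate transporter family, was at 13.4, 14.4 and 23.6 FPKM in GM, 1.16, 0.624 and 0.888 in PM and 1.03, 1.01 and 1.38 in DM. It was highest in GM, with log2 fold changes of 4.12 over PM (SE 0.29, edgeR adjusted p = 8.93e-07) and 3.86 over DM (SE 0.28, edgeR adjusted p = 8.71e-07). It overlaps ARSG on the other strand. MMP13, a collagenase, was at 28.2, 22.8 and 45.5 FPKM in GM, 2.71, 2.72 and 2.93 in PM and 1.25, 1.64 and 1.70 in DM (log2 fold changes 3.39 over PM and 4.35 over DM). PRKCQ, a protein kinase C of skeletal muscle and T cells, was at 107, 106 and 252 FPKM in GM, 24.1, 22.8 and 19.2 in PM and 20.1, 21.8 and 25.2 in DM (log2 fold changes 2.68 over PM and 2.75 over DM). In all 3 genes the lowest GM library exceeded the highest other library several-fold, and GM replicate 3 was the highest. Receptor and channel genes among the 15 with the largest differences were FSHR, the receptor of follicle-stimulating hormone (8.42 ± 2.51 FPKM in GM, 1.08 ± 0.184 FPKM in PM and 1.24 ± 0.302 FPKM in DM), CACNG4, an auxiliary calcium channel and glutamate receptor subunit (26.7 ± 13.8 FPKM in GM, 3.52 ± 1.08 FPKM in PM and 2.61 ± 0.327 FPKM in DM), and PTPRT, a receptor tyrosine phosphatase (7.47 ± 3.02 FPKM in GM, 0.388 ± 0.128 FPKM in PM and 1.28 ± 0.489 FPKM in DM). The sulfotransferase gene CHST9 averaged 16.0 ± 4.61 FPKM in GM, 2.12 ± 0.305 FPKM in PM and 1.17 ± 0.102 FPKM in DM, and BRINP2 averaged 7.08 ± 3.80 FPKM in GM, 0.929 ± 0.231 FPKM in PM and 1.18 ± 0.0934 FPKM in DM.

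Alpha-globin genes headed the ranking. HBAA had 1054 reads over the GM libraries, 3 over the PM libraries and 1 over the DM libraries. The depth-corrected ratio was 249 against PM (95% counting interval 85.1 to 1212) and 955 against DM (171 to 37757), and without GM replicate 3 the ratios were 133.6 and 512. HBAD had 319 reads over GM, 0 over PM and 1 over DM, which puts GM at least 75.5-fold higher than PM when 3 reads over the PM group are taken as the floor, or at least 35.1-fold higher without GM replicate 3. HBAA was at 19.4, 11.9 and 53.0 FPKM in GM, 0, 0 and 0.30 in PM and 0.0891, 0 and 0 in DM. These paralogs share sequence, and reads could be split between them. COCH, an extracellular matrix protein of the inner ear, had 921 reads in GM, 6 in PM and 50 in DM, with ratios of 109 against PM (49.9 to 298) and 16.7 against DM (12.6 to 22.7), and 70.4 and 10.8 without GM replicate 3.

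**Figure D2:**
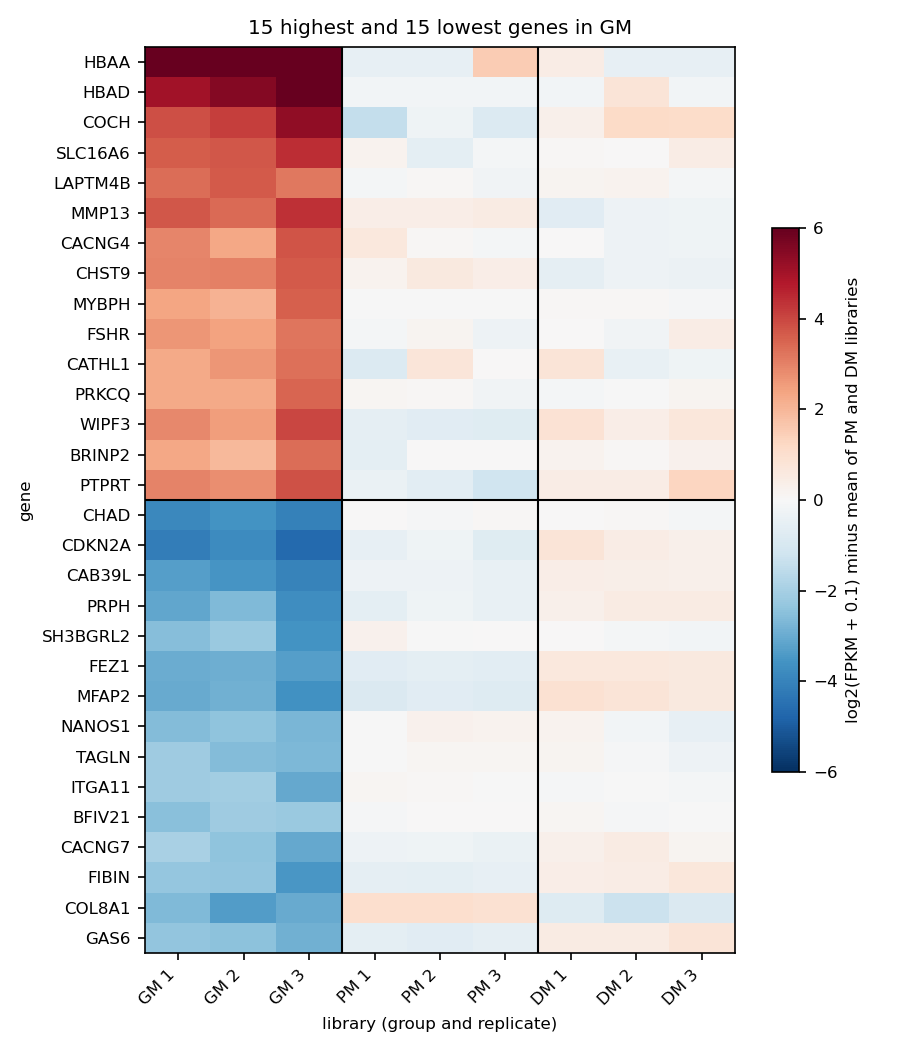
Log2(FPKM + 0.1) of the 15 genes with the largest differences in each direction, per library, minus the mean of the 6 PM and DM libraries (colour scale from -6 to 6, with larger values shown at the end of the scale). The genes were ranked by these differences, so the contrast between GM and the rest is a description, and in most rows of the upper block GM replicate 3 is darkest, LAPTM4B being an exception.

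Many genes of the contractile apparatus were at their highest in growth medium. In the sarcomere list 24 of 49 tested members were highest in GM and 2 lowest, against 15.5% and 17.0% of all genes. The median log2 difference from the average of PM and DM was 1.51, against 0.00 over all genes. Taken separately, the medians were 2.06 over PM and 0.79 over DM. MYBPH, a thick filament protein, was at 90.7, 75.2 and 207 FPKM in GM, 16.9, 16.9 and 17.1 in PM and 18.5, 18.3 and 16.8 in DM. All GM libraries lay above the others, PM and DM overlapped, and MYBPH rose with log2 fold changes of 2.74 over PM (SE 0.38, edgeR adjusted p = 3.00e-04) and 2.75 over DM (SE 0.38, edgeR adjusted p = 3.26e-04). Without GM replicate 3 these were 2.13 over PM and 2.14 over DM. KLHL41, a kelch protein of the sarcomere, was at 189, 192 and 296 FPKM in GM, 35.1, 33.7 and 35.8 in PM and 39.1, 37.0 and 42.2 in DM (log2 fold changes 2.55 over PM and 2.47 over DM). UNC45B, the chaperone that folds myosin, was at 41.1, 39.6 and 84.1 FPKM in GM, 8.14, 8.82 and 8.34 in PM and 9.09, 9.45 and 9.62 in DM (log2 fold changes 2.57 over PM and 2.50 over DM). TRIM63, a muscle ubiquitin ligase, was at 13.5, 15.5 and 24.4 FPKM in GM, 4.25, 5.51 and 4.31 in PM and 10.3, 11.0 and 8.37 in DM, closer to DM than to PM. The members lowest in GM were FHL2, a LIM-domain protein, and MYL3, an essential myosin light chain at 8.46, 7.94 and 12.7 FPKM in GM, 13.5, 14.7 and 15.6 in PM and 30.5, 26.0 and 25.5 in DM. Without GM replicate 3, 27 members were highest and 5 lowest. Summed over the list, the level was 7617, 7394 and 13216 FPKM in GM, 5172, 5177 and 5328 in PM and 6115, 5932 and 5983 in DM, so GM replicate 3 exceeded the other GM libraries by far while these still exceeded every PM and DM library.

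Genes of calcium handling and of the neuromuscular junction were often highest in GM too. In the excitation-contraction coupling list 10 of 18 tested members were highest in GM and 1 lowest, with a median difference of 1.30. Against each group alone the medians were 1.62 over PM and 0.65 over DM. SRL, a calcium-binding protein of the sarcoplasmic reticulum, was at 113, 95.2 and 220.2 FPKM in GM, 20.4, 20.5 and 18.8 in PM and 22.7, 25.3 and 29.3 in DM. It rose with log2 fold changes of 2.71 over PM (SE 0.32, edgeR adjusted p = 1.14e-04) and 2.43 over DM (SE 0.31, edgeR adjusted p = 2.23e-04). BIN1, which shapes T-tubules, was at 289, 273 and 447 FPKM in GM, 115, 103 and 90.9 in PM and 134, 146 and 161 in DM. KCNJ2, an inward rectifier potassium channel, was at 12.0, 10.3 and 18.9 FPKM in GM, 4.84, 5.22 and 4.83 in PM and 5.39, 5.54 and 5.79 in DM. ASPH was the member lowest in GM (17.1, 18.6 and 10.4 FPKM in GM, 28.6, 25.8 and 23.9 in PM and 44.3, 40.2 and 44.7 in DM). In the neuromuscular junction list 11 of 22 tested members were highest in GM and 1 lowest, with a median of 0.96. Its medians were 1.31 over PM and 0.71 over DM. DTNA, a dystrobrevin of the dystrophin complex, was at 47.8, 42.6 and 97.9 FPKM in GM, 18.5, 17.4 and 16.0 in PM and 14.8, 16.6 and 16.4 in DM, with log2 fold changes of 1.73 over PM (SE 0.31, edgeR adjusted p = 0.00124) and 1.93 over DM (SE 0.31, edgeR adjusted p = 7.47e-04). SGCD, a sarcoglycan, was at 42.0, 39.2 and 66.2 FPKM in GM, 12.2, 8.82 and 7.40 in PM and 13.8, 16.2 and 22.2 in DM, and the receptor subunit gene CHRND was also highest. The neuregulin receptor ERBB3 was at 5.89, 4.60 and 12.3 FPKM in GM, 0.915, 0.699 and 0.722 in PM and 3.44, 3.20 and 2.89 in DM, in the order GM, DM, PM without overlap. SNTB1, a syntrophin, was lowest, although DM replicate 1 and GM replicate 2 overlapped (6.78, 9.20 and 6.98 FPKM in GM, 11.7, 10.9 and 10.8 in PM and 9.0, 9.96 and 14.7 in DM). The median level in GM replicate 3 exceeded that of the other GM libraries by 0.80 in the coupling list and by 0.63 in the junction list.

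**Figure D3:**
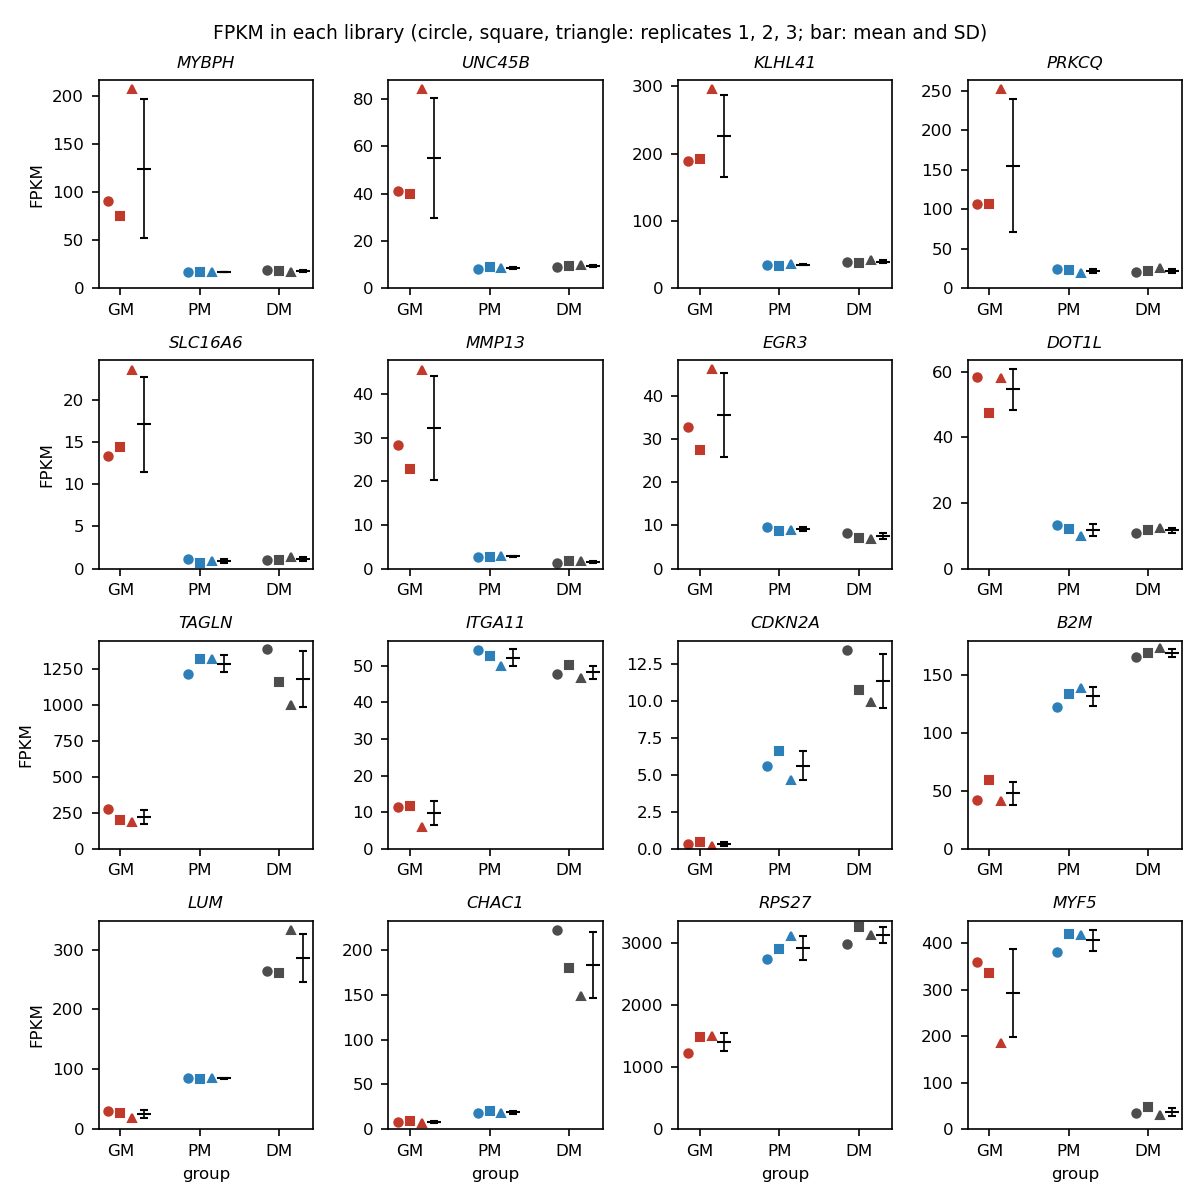
FPKM of 16 genes in each library, with GM, PM and DM from left to right, replicates 1 to 3 as circle, square and triangle, and the mean and SD as bars (n = 3 each, linear axes from 0). The contractile and signalling genes stand above both other groups in all GM libraries, TAGLN to RPS27 stand below, and MYF5 lies below PM and far above DM.

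A share of the myogenic regulators was highest in GM, while the list as a whole was mixed against PM. In that list 6 of 25 tested members (24%) were highest in GM and 0 lowest, against 15.5% and 17.0% of all genes. With a 2-fold minimum 1 member was highest. Against PM 12 members were higher and 10 lower in GM (median 0.02), and against DM 14 were higher and 2 lower (median 0.51). The summed level was 2306, 2122 and 2528 FPKM in GM, 2847, 3006 and 2993.5 in PM and 1429, 1482 and 1359 in DM. The highest members were EYA1, SIX4, MEF2A, MEF2D, MKL2 and PITX3. EYA1, a phosphatase and transcriptional cofactor, was at 25.6, 22.5 and 39.6 FPKM in GM, 7.98, 5.72 and 6.51 in PM and 10.5, 12.2 and 13.4 in DM, with log2 fold changes of 1.98 over PM (SE 0.23, edgeR adjusted p = 4.25e-05) and 1.23 over DM (SE 0.22, edgeR adjusted p = 8.22e-04). MEF2A was at 80.6, 73.1 and 129.6 FPKM in GM, 32.9, 31.7 and 29.2 in PM and 48.5, 49.0 and 52.4 in DM. MKL2, a coactivator of serum response factor, was at 12.8, 11.6 and 12.1 FPKM in GM, 2.98, 2.62 and 2.97 in PM and 5.65, 6.37 and 7.69 in DM. MEF2C was at 65.9, 61.6 and 150.4 FPKM in GM, 10.4, 8.78 and 8.09 in PM and 46.8, 48.4 and 53.4 in DM, above every PM and DM library in all GM libraries, yet its difference from DM missed the threshold (log2 fold change 0.86, edgeR adjusted p = 0.0520). Leaving out GM replicate 1, 2 or 3 brought the MEF2C difference past it (edgeR adjusted p = 0.0258, 0.0174 and 0.0135), and its size was 0.29 in the last of these fits. In all, the MEF2C call against DM was gained under 9 of 18 alternatives. MYOG was at 287, 287 and 526 FPKM in GM, 167, 183 and 180.5 in PM and 298, 328 and 274 in DM. It was higher in GM than in PM, with log2 fold changes of 0.91 over PM (SE 0.23, edgeR adjusted p = 0.00776) and 0.24 over DM (SE 0.23, edgeR adjusted p = 0.393), and the difference from DM did not pass. Without GM replicate 3 the values were 0.53 over PM and -0.14 over DM. MYF6 was at 54.2, 44.3 and 33.4 FPKM in GM, 98.1, 106 and 103 in PM and 12.9, 11.1 and 8.81 in DM, below PM and above DM in every library. Among genes of myoblast fusion 5 of 30 tested members were highest in GM and 3 lowest, and 3 were highest without DM replicate 3 or with no filter on low counts. With limma on log2(FPKM + 0.1) 8 fusion genes were highest, and with the length trend removed 7 were lowest. CAV3, the muscle caveolin, was at 104, 102 and 244 FPKM in GM, 27.3, 32.9 and 30.5 in PM and 22.7, 23.9 and 25.3 in DM. CDH2, N-cadherin, was at 167, 118 and 222 FPKM in GM, 99.2, 92.4 and 87.5 in PM and 93.4, 89.0 and 89.0 in DM. CDON, a cell-surface coreceptor that promotes myogenesis, was at 7.76, 6.99 and 7.57 FPKM in GM, 12.1, 12.4 and 11.5 in PM and 20.2, 19.5 and 17.7 in DM. KIRREL, an immunoglobulin-family adhesion protein, was at 86.8, 79.6 and 60.3 FPKM in GM, 123, 128 and 120.4 in PM and 135, 124 and 118 in DM. The GM libraries lay below all others in both genes.

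Several genes that respond quickly to serum were at their highest in growth medium. In the immediate early and serum response list 10 of 28 tested members were highest in GM and 1 lowest, with a median of 0.41 against the average of PM and DM. The medians were 0.07 over PM and 0.75 over DM, so the list as a whole was hardly above PM. Its sum was 8906, 8194 and 7838 FPKM in GM, 10847, 10820.5 and 11023.5 in PM and 5523, 5235 and 5062 in DM, below PM in every GM library. The highest members were ARC, EGR1, EGR3, EGR4, FOSB, FOSL2, KLF6, NR4A1, NR4A2 and VCL. EGR3 was at 32.8, 27.6 and 46.3 FPKM in GM, 9.60, 8.71 and 9.05 in PM and 8.27, 7.18 and 6.93 in DM, with log2 fold changes of 1.82 over PM (SE 0.19, edgeR adjusted p = 9.06e-06) and 2.20 over DM (SE 0.19, edgeR adjusted p = 2.55e-06). EGR1 was at 216, 198 and 266 FPKM in GM, 144, 133 and 133 in PM and 44.1, 47.6 and 52.3 in DM, nearer to PM than to DM. FOSL2 was at 210.4, 172 and 166 FPKM in GM, 88.1, 81.7 and 73.1 in PM and 85.7, 82.3 and 82.6 in DM. NR4A1, an orphan nuclear receptor, was at 7.96, 6.74 and 14.6 FPKM in GM, 1.32, 1.89 and 1.51 in PM and 3.21, 3.72 and 3.73 in DM. CTGF, a secreted target of serum and TGF-beta signalling, went the other way at 216, 166 and 184 FPKM in GM, 777, 796 and 808 in PM and 311, 335 and 319.7 in DM. In the list of ERK feedback 7 of 21 tested members were highest in GM and 0 lowest, and 11 were highest with limma on log2(FPKM + 0.1). With a 2-fold minimum 0 ERK feedback genes were highest. SPRED2, an inhibitor of Ras signalling, was at 25.2, 26.2 and 23.2 FPKM in GM, 15.8, 14.4 and 13.8 in PM and 15.9, 16.2 and 17.8 in DM. CCND1, cyclin D1, was at 96.2, 77.4 and 79.1 FPKM in GM, 31.3, 26.1 and 26.4 in PM and 44.8, 49.1 and 41.6 in DM, with log2 fold changes of 1.45 over PM (SE 0.11, edgeR adjusted p = 8.45e-07) and 0.84 over DM (SE 0.10, edgeR adjusted p = 3.52e-05), and the values of the 3 groups did not overlap.

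Growth factor genes went both ways. In that list 10 of 42 tested members were highest in GM and 3 lowest. The highest members were EGF, FGF13, VEGFA, and the receptor genes ERBB3, ERBB4, FLT1, FLT4, KDR, IGF1R and MET, and the lowest were the ligand genes IGF2, PDGFC and VEGFC. EGF was at 10.7, 8.57 and 22.7 FPKM in GM, 0.535, 0.405 and 0.496 in PM and 3.20, 4.01 and 4.41 in DM. FGF13, an intracellular member of its family, was at 20.6, 21.3 and 50.03 FPKM in GM, 1.55, 1.84 and 2.20 in PM and 9.45, 6.82 and 7.40 in DM. IGF2 was at 12.5, 11.2 and 16.0 FPKM in GM, 17.1, 21.4 and 17.7 in PM and 27.4, 29.9 and 35.3 in DM, with log2 fold changes of -0.64 over PM (SE 0.16, edgeR adjusted p = 0.00352) and -1.27 over DM (SE 0.15, edgeR adjusted p = 2.99e-05), and GM lay below all other libraries. ERBB4 had 1759 reads in GM, 8 in PM and 337 in DM, a ratio of 156 against PM (79.1 to 362) and 4.73 against DM (4.21 to 5.33), and of 97.8 and 2.96 without GM replicate 3. With a minimum of 5 FPKM in 3 libraries, 5 of these members and 6 of the immediate early members were highest, since low genes were then not tested.

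Ribosome assembly factors were often highest in GM, and most ribosomal proteins were lowest. In the ribosome biogenesis list 23 of 59 tested members were highest in GM and 1 lowest, with a median of 0.26. With a 2-fold minimum 2 members were highest. UTP20, a factor of early pre-rRNA processing, was at 20.7, 19.8 and 17.9 FPKM in GM, 7.61, 7.80 and 6.21 in PM and 8.48, 8.72 and 8.73 in DM, with log2 fold changes of 1.29 over PM (SE 0.08, edgeR adjusted p = 4.03e-07) and 1.11 over DM (SE 0.08, edgeR adjusted p = 8.50e-07). URB1 averaged 12.2 ± 1.28 FPKM in GM, 4.14 ± 0.349 FPKM in PM and 5.60 ± 0.512 FPKM in DM and HEATR1 averaged 26.7 ± 1.64 FPKM in GM, 11.5 ± 0.488 FPKM in PM and 15.3 ± 0.129 FPKM in DM. BYSL was the lowest member, with a call against PM that was lost under 14 of 18 alternatives (edgeR adjusted p up to 0.503). Of the cytosolic ribosomal proteins 0 of 62 tested members were highest in GM and 58 lowest, with medians of -0.76 over PM and -0.62 over DM. With a 2-fold minimum 2 ribosomal proteins were lowest. RPS27 was at 1232, 1480.3 and 1499 FPKM in GM, 2740.3, 2905 and 3118 in PM and 2995, 3257 and 3132 in DM, with log2 fold changes of -1.21 over PM (SE 0.09, edgeR adjusted p = 9.20e-07) and -1.21 over DM (SE 0.09, edgeR adjusted p = 8.05e-07). RPL36 averaged 1058 ± 119.8 FPKM in GM, 1875 ± 88.7 FPKM in PM and 1961 ± 157 FPKM in DM. The summed level of the ribosomal proteins was 63655, 70912 and 66819.8 FPKM in GM, 97927, 103494 and 106334 in PM and 94915, 107399 and 103014 in DM, without overlap between GM and the rest.

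Many splicing and chromatin genes were also at their highest in GM. Among splicing factors 17 of 50 tested members were highest in GM and 2 lowest, with a median of 0.31. With a 2-fold minimum 0 splicing factors were highest, beside 640 of all 14796 genes. QKI, an RNA-binding regulator of splicing, was at 210.3, 189 and 237 FPKM in GM, 70.3, 64.4 and 52.8 in PM and 115, 120.5 and 124 in DM. RBM24, a muscle splicing regulator, was at 247, 243 and 354 FPKM in GM, 129, 121 and 119 in PM and 149, 151 and 157 in DM. CELF2 averaged 43.3 ± 4.68 FPKM in GM, 16.3 ± 1.96 FPKM in PM and 21.4 ± 0.465 FPKM in DM. Among chromatin modifiers 23 of 59 tested members were highest in GM and 4 lowest, with a median of 0.51, and 4 were highest with a 2-fold minimum. By group the medians were 0.81 over PM and 0.21 over DM, so the list stood further above PM than above DM. Its members were long, with a median transcript of 5118 bases against 1838 over all genes. DOT1L, the methyltransferase of histone H3 lysine 79, was at 58.4, 47.5 and 58.2 FPKM in GM, 13.3, 12.0 and 9.93 in PM and 10.7, 11.9 and 12.2 in DM, with log2 fold changes of 2.08 over PM (SE 0.12, edgeR adjusted p = 1.58e-07) and 2.18 over DM (SE 0.12, edgeR adjusted p = 7.01e-08). TET2, an enzyme of DNA demethylation, was at 14.6, 13.4 and 14.8 FPKM in GM, 3.85, 2.91 and 2.29 in PM and 4.34, 4.59 and 5.05 in DM. The deacetylase genes were divided, with HDAC9 highest (13.5 ± 4.62 FPKM in GM, 4.14 ± 0.572 FPKM in PM and 4.05 ± 0.378 FPKM in DM) and HDAC2, HDAC3, HDAC7 and HDAC8 lowest, HDAC7 at 15.8 ± 2.00 FPKM in GM, 24.2 ± 0.572 FPKM in PM and 37.3 ± 2.81 FPKM in DM.

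Gene length moved with these calls. The share of genes highest in GM was 9.08%, 10.6%, 16.3% and 26.1% in 4 equal bins of genes from the shortest to the longest transcripts, and the share lowest in GM was 20.2%, 20.1%, 17.0% and 10.7%. From the shortest to the longest bin the median log2 fold change ran from -0.28 to 0.34 over PM and from -0.09 to 0.11 over DM. The length trend was thus larger against PM than against DM, and its cause was not tested. The median transcript was 2506 bases among genes highest in GM, 1641 among those lowest and 1838 among all tested. With the length trend removed in each library, 2273 genes were highest, 1932 of them as before, and 2439 were lowest, 2159 of them as before. The list counts were then 52 lowest for ribosomal proteins, 12 highest for splicing factors, 18 highest for chromatin modifiers and 26 highest for the sarcomere.

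Nuclear genes of mitochondrial respiration were often lowest in GM. Of nuclear genes of oxidative phosphorylation 0 of 48 tested members were highest in GM and 19 lowest, with medians of -0.70 over PM and -0.14 over DM. The number lowest was 12 with the length trend removed and 0 with a 2-fold minimum. NDUFS5, a subunit of complex I, was at 103, 119.5 and 119.7 FPKM in GM, 234, 259 and 256 in PM and 173, 187 and 175 in DM, with log2 fold changes of -1.28 over PM (SE 0.08, edgeR adjusted p = 3.21e-07) and -0.70 over DM (SE 0.08, edgeR adjusted p = 2.01e-05). NDUFB2 averaged 151 ± 18.3 FPKM in GM, 327 ± 19.4 FPKM in PM and 245 ± 12.4 FPKM in DM. Of mitochondrially encoded genes 3 of 13 tested members were highest in GM and 1 lowest, and the number highest ran from 2 to 7 over the alternatives, with 5 without GM replicate 2 and 7 without DM replicate 1. ND5 was at 2286, 1817 and 2194 FPKM in GM, 816, 759 and 853 in PM and 1414, 1009 and 1168 in DM. MT-ND2 was at 1945, 1556 and 1889.98 FPKM in GM, 975, 825 and 959 in PM and 942, 675 and 789.97 in DM, above all other libraries. MT-ND3 was lowest, at 1975, 1859 and 2269 FPKM in GM, 3028, 2569 and 2549 in PM and 2678, 2751 and 2871 in DM. In glycolysis 2 of 21 tested members were highest in GM and 5 lowest. HK2, a hexokinase, was at 42.4, 40.4 and 44.8 FPKM in GM, 20.5, 21.0 and 20.7 in PM and 26.0, 23.0 and 20.2 in DM. ENO3, the muscle enolase, was at 3.08, 3.50 and 5.35 FPKM in GM, 10.8, 9.81 and 9.15 in PM and 26.4, 28.1 and 25.1 in DM. The glycolysis genes lowest in GM numbered 3 without PM replicate 2, PM replicate 3 or GM replicate 1. Of hypoxia response genes 5 of 20 tested members were highest in GM and 6 lowest. EGLN3 was highest at 19.0, 29.4 and 13.0 FPKM in GM, 9.31, 8.64 and 7.25 in PM and 3.20, 3.32 and 3.56 in DM. BNIP3 was lowest at 18.4, 21.7 and 21.3 FPKM in GM, 39.4, 38.5 and 39.9 in PM and 46.4, 43.7 and 41.8 in DM.

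The genes lowest in growth medium with the largest differences had varied roles. CDKN2A, a tumour suppressor locus that restrains the cell cycle, was at 0.348, 0.482 and 0.215 FPKM in GM, 5.61, 6.58 and 4.67 in PM and 13.4, 10.7 and 9.88 in DM. Every GM library was far below all others, and CDKN2A fell with log2 fold changes of -4.17 over PM (SE 0.26, edgeR adjusted p = 2.76e-07) and -5.09 over DM (SE 0.25, edgeR adjusted p = 3.82e-08). CHAD, the cartilage matrix protein chondroadherin, was at 0.284, 0.362 and 0.237 FPKM in GM, 5.51, 5.11 and 5.73 in PM and 5.56, 5.74 and 5.08 in DM (log2 fold changes -4.36 over PM and -4.27 over DM). It overlaps ACSF2, a gene with more reads, on the other strand. CAB39L, a partner of the kinase LKB1, was at 3.49, 2.95 and 2.13 FPKM in GM, 28.7, 29.2 and 26.5 in PM and 46.8, 45.7 and 43.5 in DM (log2 fold changes -3.45 over PM and -4.05 over DM). TAGLN, an actin-binding protein of smooth muscle, was at 279, 199 and 188 FPKM in GM, 1214, 1317 and 1317 in PM and 1383, 1155 and 999 in DM, with log2 fold changes of -2.68 over PM (SE 0.17, edgeR adjusted p = 7.23e-07) and -2.47 over DM (SE 0.17, edgeR adjusted p = 1.03e-06). ITGA11, a collagen receptor, was at 11.5, 11.6 and 5.93 FPKM in GM, 54.2, 52.7 and 49.8 in PM and 47.7, 50.1 and 46.7 in DM. NANOS1, a translational repressor, was at 28.0, 32.3 and 25.4 FPKM in GM, 170.1, 206 and 197 in PM and 201, 156 and 122 in DM. In CHAD, TAGLN, ITGA11 and NANOS1 the PM and DM libraries overlapped, and in CDKN2A and CAB39L DM was above PM. FEZ1, known for axon growth, averaged 5.32 ± 0.744 FPKM in GM, 29.2 ± 1.31 FPKM in PM and 69.6 ± 1.42 FPKM in DM, GAS6, a ligand of TAM receptor kinases, averaged 4.07 ± 0.777 FPKM in GM, 16.2 ± 0.880 FPKM in PM and 36.8 ± 3.74 FPKM in DM, and MFAP2, a microfibril protein that overlaps ATP13A2, averaged 7.15 ± 1.85 FPKM in GM, 37.6 ± 2.50 FPKM in PM and 109 ± 11.6 FPKM in DM.

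Most smooth muscle markers and a smaller share of fibroblast markers were lowest in GM, while tendon and cartilage markers went both ways. Of smooth muscle and myofibroblast markers 1 of 16 tested members were highest in GM and 10 lowest, with a median of -0.71. ACTA2, smooth muscle actin, was at 139, 117 and 123 FPKM in GM, 289.6, 282 and 278 in PM and 1991, 1987 and 1800.2 in DM, below PM by a log2 fold change of -1.31 and below DM by -3.98. ACTG2 averaged 33.3 ± 7.08 FPKM in GM, 82.1 ± 3.44 FPKM in PM and 69.5 ± 8.96 FPKM in DM. The list summed to 2379.7, 2233 and 2062 FPKM in GM, 4218, 4301 and 4384 in PM and 5801, 5476 and 5088 in DM, so GM lay below both other groups without overlap. Of fibroblast and connective tissue markers 0 of 16 tested members were highest in GM and 4 lowest, and 7 were lowest without GM replicate 2. LUM, the proteoglycan lumican, was at 30.5, 26.3 and 18.5 FPKM in GM, 85.7, 84.2 and 85.6 in PM and 265, 261 and 332 in DM, with log2 fold changes of -1.92 over PM (SE 0.15, edgeR adjusted p = 2.61e-06) and -3.57 over DM (SE 0.16, edgeR adjusted p = 5.61e-08). PRRX1, a transcription factor of connective tissue, was at 62.5, 64.1 and 49.2 FPKM in GM, 93.0, 96.5 and 99.0 in PM and 144, 122 and 134 in DM. S100A6 was at 979.7, 1125 and 868 FPKM in GM, 3197, 3319 and 3436 in PM and 1324, 1445 and 1415 in DM. The fibroblast list summed to 6763, 7111 and 5393 FPKM in GM, 9296, 9444 and 9509 in PM and 8208, 8290.2 and 8931 in DM. Of tendon and cartilage markers 3 of 15 tested members were highest in GM and 5 lowest, with medians of -1.07 over PM and 0.14 over DM. The list summed to 246, 231 and 291 FPKM in GM, 179, 169.6 and 166 in PM and 105, 112 and 114 in DM. By this sum every GM library lay above the others, although the members printed next were lower in GM. MKX, a tendon transcription factor, was at 4.94, 4.66 and 2.26 FPKM in GM, 11.4, 8.19 and 7.24 in PM and 23.3, 22.9 and 24.9 in DM. SCX had 22 reads in GM, 148 in PM and 760 in DM.

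Extracellular matrix genes went both ways. In the list of matrix genes 11 of 54 tested members (20.4%) were highest in GM and 7 (13.0%) lowest. Over all genes these shares were 15.5% and 17.0%, so the list was not far from the background. With the length trend removed 7 matrix genes were highest and 13 lowest. The highest included the basement membrane genes COL4A1, COL4A2, COL4A5, LAMA1, LAMA2, NID2 and AGRN. COL4A5 lost its call against PM with the length trend removed (edgeR adjusted p = 0.0701). THBS4 was at 13.7, 14.7 and 11.9 FPKM in GM, 2.26, 2.24 and 2.02 in PM and 0.298, 0.379 and 0.472 in DM. TNC, tenascin C, was at 359.6, 338 and 233 FPKM in GM, 148, 138 and 128 in PM and 128, 144 and 144 in DM. The lowest were ASPN, COL5A2, COL8A1, FBLN5, LUM, SPARC and THBS2, with the short-chain collagen COL8A1 at 1.53, 0.886 and 1.14 FPKM in GM, 20.2, 20.4 and 19.3 in PM and 5.84, 4.11 and 5.54 in DM. FBLN5, a protein of elastic fibres, was at 0.498, 0.549 and 0.342 FPKM in GM, 3.84, 3.64 and 2.65 in PM and 7.89, 9.36 and 12.6 in DM. TNC rose with log2 fold changes of 1.01 over PM (SE 0.13, edgeR adjusted p = 3.93e-05) and 1.10 over DM (SE 0.13, edgeR adjusted p = 2.50e-05). GM replicate 3 was the lowest of the GM libraries for 42 of 54 matrix genes. Among integrins, cadherins and junctions 15 of 51 tested members were highest in GM and 4 lowest, and 9 were lowest with the length trend removed. PKP2, a desmosome protein, averaged 5.70 ± 1.45 FPKM in GM, 1.19 ± 0.260 FPKM in PM and 0.838 ± 0.0724 FPKM in DM and GJD2, a gap junction protein, averaged 16.6 ± 6.82 FPKM in GM, 1.77 ± 0.324 FPKM in PM and 2.92 ± 0.499 FPKM in DM, while ITGB5 averaged 28.9 ± 2.74 FPKM in GM, 98.5 ± 2.83 FPKM in PM and 66.2 ± 1.42 FPKM in DM.

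Many genes of the interferon response list were lowest in GM. In the interferon response list 1 of 23 tested members were highest in GM and 14 lowest, with a median of -0.69. The number lowest was 9 without GM replicate 1, and 10 without GM replicate 3 or with limma on log2(FPKM + 0.1). B2M, the light chain of MHC class I, was at 42.0, 59.6 and 41.5 FPKM in GM, 123, 133 and 139 in PM and 165, 169 and 173 in DM, with log2 fold changes of -1.62 over PM (SE 0.12, edgeR adjusted p = 7.18e-07) and -1.89 over DM (SE 0.12, edgeR adjusted p = 1.96e-07). The class I heavy chain gene BF1 averaged 9.34 ± 1.30 FPKM in GM, 31.7 ± 0.959 FPKM in PM and 50.2 ± 2.70 FPKM in DM. BFIV21, another class I gene, averaged 14.9 ± 1.94 FPKM in GM, 71.9 ± 3.28 FPKM in PM and 73.2 ± 5.77 FPKM in DM, though reads of these paralogs may be shared. IFI35 averaged 11.3 ± 2.89 FPKM in GM, 37.8 ± 2.64 FPKM in PM and 37.3 ± 1.20 FPKM in DM. SOCS3, an inhibitor of cytokine signalling, was the highest member at 40.2, 40.3 and 35.6 FPKM in GM, 27.2, 28.2 and 30.8 in PM and 18.7, 19.6 and 17.8 in DM. Of cytokine and chemokine genes 1 of 34 tested members were highest in GM and 7 lowest. IL15 was at 1.47, 1.67 and 1.89 FPKM in GM, 10.3, 7.67 and 7.94 in PM and 4.31, 3.90 and 6.12 in DM. Of autophagy and lysosome genes 3 of 44 tested members were highest in GM and 18 lowest. CTSH, a lysosomal protease, was at 26.5, 35.0 and 24.9 FPKM in GM, 118, 121 and 122 in PM and 76.4, 75.1 and 71.2 in DM. GABARAPL1 was highest at 50.2, 54.6 and 48.0 FPKM in GM, 34.7, 34.3 and 31.9 in PM and 30.6, 35.4 and 37.2 in DM.

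The summed level of macrophage and leukocyte markers was below that of PM in all GM libraries. Of these markers 0 of 20 tested members were highest in GM and 7 lowest, and 17 were lowest without GM replicate 3, which was the highest GM library for 20 of 20. The list summed to 155, 167 and 344 FPKM in GM, 1129.9, 1146 and 1190.5 in PM and 332, 355 and 372 in DM, so GM replicate 3 reached the level of DM. LY86 was at 0.879, 1.06 and 2.60 FPKM in GM, 38.5, 39.8 and 39.4 in PM and 4.25, 6.80 and 5.48 in DM, with log2 fold changes of -4.81 over PM and -1.88 over DM, and -5.50 over PM and -2.58 over DM without GM replicate 3. The interferon list summed to 235, 295 and 241 FPKM in GM, 465, 478 and 493 in PM and 472, 444 and 449.8 in DM and was not raised in GM replicate 3. The part of leukocytes in the interferon and lysosome results was not tested.

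Amino acid supply genes under ATF4, the transcription factor of the integrated stress response, were in several cases lowest in GM. In that list 0 of 20 tested members were highest in GM and 8 lowest, with medians of -0.31 over PM and -1.95 over DM, and 5 were lowest with limma on log2(FPKM + 0.1). The lowest members were ASNS, ATF4, CHAC1, MTHFD2, PSPH, SLC38A2, SLC6A9 and SLC7A3. CHAC1, an enzyme of glutathione breakdown, was at 8.39, 9.39 and 7.15 FPKM in GM, 18.2, 20.02 and 17.5 in PM and 222, 180.2 and 149 in DM, with log2 fold changes of -1.31 over PM (SE 0.15, edgeR adjusted p = 2.46e-05) and -4.53 over DM (SE 0.16, edgeR adjusted p = 8.93e-09). SLC6A9, a glycine transporter, was at 25.2, 22.9 and 25.7 FPKM in GM, 53.0, 50.3 and 49.6 in PM and 120.4, 117 and 102 in DM. In both, DM was far above PM, and PM lay above every GM library. Among endoplasmic reticulum chaperones and genes of the unfolded protein response 2 of 34 tested members were highest in GM and 11 lowest. P4HB, a protein disulfide isomerase, was at 481, 499 and 332 FPKM in GM, 741, 738 and 751 in PM and 893, 895 and 876 in DM. CANX, the chaperone calnexin, was at 253, 255 and 226 FPKM in GM, 167, 162 and 159 in PM and 139.7, 146 and 145 in DM. Of tRNA synthetases 4 of 18 tested members were highest in GM and 5 lowest, the number lowest being 3 without PM replicate 2 and 2 without PM replicate 3. With the length trend removed, 2 synthetase genes were highest. NARS was highest at 102, 103 and 106 FPKM in GM, 60.04, 52.2 and 51.1 in PM and 58.9, 58.4 and 59.3 in DM. SARS was lowest at 128, 129.7 and 111 FPKM in GM, 183, 199 and 200.1 in PM and 289, 287 and 247 in DM.

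Signalling pathways of development gave mixed counts. Of Notch genes 2 of 22 tested members were highest in GM and 3 lowest. JAG2 was highest at 26.2, 27.4 and 31.8 FPKM in GM, 12.0, 10.6 and 9.48 in PM and 8.80, 10.8 and 10.8 in DM. The target HEY2 was lowest at 7.14, 5.27 and 6.81 FPKM in GM, 9.83, 11.6 and 9.60 in PM and 11.6, 12.3 and 10.01 in DM. Without GM replicate 3, 4 Notch genes were highest. Of Wnt genes 6 of 43 tested members were highest in GM and 10 lowest. APC, a scaffold of the beta-catenin destruction complex, was at 45.8, 39.3 and 61.1 FPKM in GM, 10.4, 8.34 and 8.13 in PM and 16.4, 16.8 and 19.4 in DM. RSPO3, an enhancer of Wnt signalling, was at 4.08, 2.87 and 3.07 FPKM in GM, 13.1, 13.7 and 13.1 in PM and 7.29, 6.33 and 8.22 in DM. The secreted Wnt inhibitor SFRP2 was at 2.69, 3.32 and 1.59 FPKM in GM, 5.99, 5.18 and 6.08 in PM and 118, 108 and 166 in DM, low in GM and PM and high in DM. Of TGF-beta and BMP genes 7 of 39 tested members were highest in GM and 6 lowest, and 11 were highest without GM replicate 3. TGFBR2, a receptor, was at 39.6, 39.4 and 35.3 FPKM in GM, 14.3, 13.8 and 11.6 in PM and 15.8, 17.5 and 18.9 in DM. FSTL1, a secreted BMP modulator, was at 141, 144 and 118 FPKM in GM, 203, 195 and 194 in PM and 274, 273 and 303 in DM. Of Hedgehog and primary cilium genes 2 of 34 tested members were highest in GM and 11 lowest. PTCH1, the Hedgehog receptor, was at 7.72, 9.34 and 6.22 FPKM in GM, 4.74, 4.88 and 4.15 in PM and 1.96, 1.85 and 2.18 in DM (a call against PM that was lost with the length trend removed, edgeR adjusted p = 0.152). MKS1, a cilium assembly gene, was at 10.8, 11.9 and 8.60 FPKM in GM, 18.1, 17.0 and 19.4 in PM and 17.4, 18.1 and 18.2 in DM. With limma on log2(FPKM + 0.1), 6 Wnt genes and 5 cilium genes were lowest.

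The remaining lists covered transcription factors, axon guidance, channels, protein breakdown, the circadian clock and cholesterol synthesis. Of developmental transcription factors 6 of 63 tested members were highest in GM and 9 lowest. RUNX1 was highest at 69.3, 55.8 and 72.0 FPKM in GM, 21.1, 17.7 and 15.4 in PM and 29.9, 33.8 and 31.8 in DM. Of axon guidance genes 9 of 49 tested members were highest in GM and 6 lowest. Of potassium, sodium and calcium channels 12 of 52 tested members were highest in GM and 2 lowest. Of muscle proteolysis genes 5 of 26 tested members were highest in GM and 1 lowest. Of circadian genes 3 of 18 tested members were highest in GM and 1 lowest. CLOCK was highest at 17.9, 17.7 and 17.0 FPKM in GM, 7.45, 6.04 and 5.45 in PM and 9.19, 9.32 and 11.5 in DM. Of proteasome genes 2 of 31 tested members were highest in GM and 3 lowest, and of cholesterol synthesis genes 1 of 20 tested members were highest in GM and 1 lowest.

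Genes of mitosis and DNA replication were seldom at an extreme in GM, and most were higher in GM than in DM. In the mitosis list 1 of 38 tested members were highest in GM and 0 lowest, with 1 higher and 18 lower than in PM, and 37 higher and 0 lower than in DM, and medians of -0.44 over PM and 2.30 over DM. Over all genes, 32.0% were higher and 34.1% lower in GM than in PM, and 30.3% and 30.8% than in DM. CENPF, a kinetochore protein, was the highest member, and its difference from PM no longer passed when PM replicate 1 or 3 or GM replicate 1 or 2 was left out (edgeR adjusted p = 0.0655, 0.0604, 0.0726 and 0.0728). The summed level was 1797, 1927 and 1069 FPKM in GM, 2099, 2114 and 2114 in PM and 437, 466 and 449 in DM, and GM replicate 3 was clearly below the other GM libraries while still above DM. In the DNA replication list 3 of 42 tested members were highest in GM and 2 lowest, with 3 higher and 23 lower than in PM, and 36 higher and 2 lower than in DM. Without GM replicate 3, 8 mitosis genes and 7 DNA replication genes were highest in GM. POLA1, a subunit of DNA polymerase alpha, was highest at 19.9, 20.1 and 12.4 FPKM in GM, 9.42, 9.87 and 8.51 in PM and 7.26, 7.99 and 8.14 in DM, and PRIM1, a primase subunit, was lowest at 18.7, 19.5 and 15.7 FPKM in GM, 29.2, 32.3 and 32.1 in PM and 24.7, 27.3 and 23.2 in DM. Beside genes that restrain division, the list of cell cycle exit holds the D cyclin genes, so its counts give no direction for exit. It held 3 highest members, CCND1, E2F4 and RBL1, and 2 lowest, BTG1 and CDKN2A, of 19 tested. The RBL1 call against PM was lost under 9 of 18 alternatives (edgeR adjusted p up to 0.363). BTG1, an antiproliferative gene, was at 275, 278 and 262 FPKM in GM, 315, 326 and 330.3 in PM and 539, 493 and 484 in DM.

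**Figure D4:**
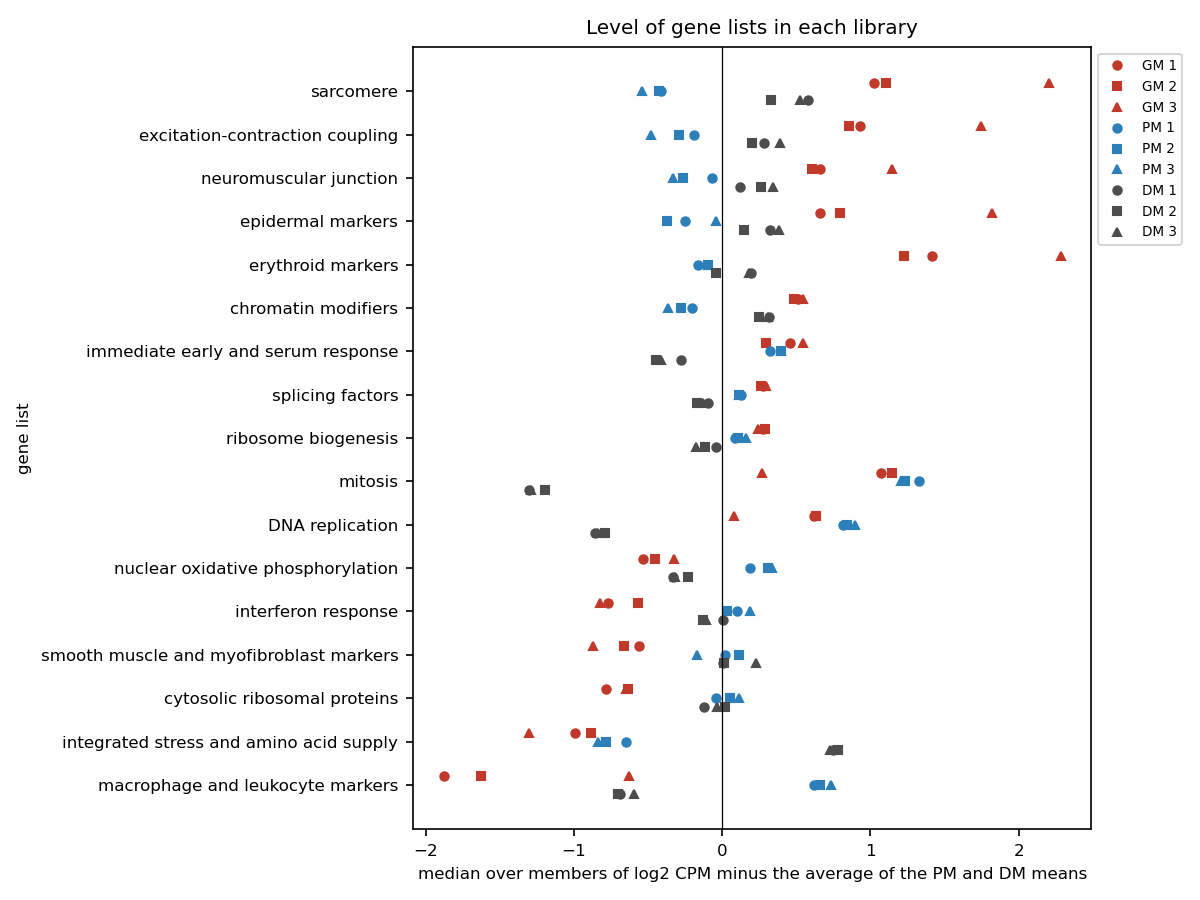
Median over the tested members of a list of log2 CPM minus the average of the PM and DM means, for each library (GM red, PM blue, DM grey; circle, square and triangle for replicates 1 to 3). GM replicate 3 lies to the right of the other GM libraries for sarcomere, erythroid and macrophage lists and to the left for mitosis and DNA replication.

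Among markers of other cell types, several erythroid, epidermal and neural ones were at their highest in GM. Of erythroid markers 8 of 11 tested members were highest in GM and 1 lowest. SPTB, a spectrin that muscle also makes, was at 17.4, 15.6 and 30.8 FPKM in GM, 4.29, 4.11 and 4.19 in PM and 8.17, 9.07 and 8.83 in DM. The erythroid list, in which the transferrin receptor gene TFRC is also a gene of dividing cells, summed to 166, 164 and 218 FPKM in GM, 84.2, 79.97 and 75.0 in PM and 73.1, 74.6 and 77.3 in DM. Of epidermal markers 6 of 12 tested members were highest in GM and 0 lowest, and the list summed to 58.5, 46.3 and 95.0 FPKM in GM, 20.5, 18.9 and 19.1 in PM and 24.7, 24.6 and 23.1 in DM. CDH1, E-cadherin, which overlaps a gene on the other strand, was at 30.1, 20.7 and 52.0 FPKM in GM, 4.81, 5.43 and 5.30 in PM and 10.2, 11.1 and 9.55 in DM. TP63, a regulator of epidermal fate, was at 12.9, 9.42 and 22.0 FPKM in GM, 4.52, 3.60 and 3.83 in PM and 2.94, 2.80 and 3.10 in DM. Of neural and Schwann markers 6 of 14 tested members were highest in GM and 0 lowest, with a sum of 96.9, 97.6 and 108 FPKM in GM, 65.5, 60.1 and 61.3 in PM and 51.0, 51.8 and 54.5 in DM. Of endothelial markers 5 of 12 tested members were highest in GM and 3 lowest, and 0 were highest with a minimum of 5 FPKM in 3 libraries, the sum being 22.6, 24.5 and 28.3 FPKM in GM, 45.2, 47.3 and 44.3 in PM and 54.1, 50.2 and 48.6 in DM. Of adipocyte markers 3 of 13 tested members were highest in GM and 2 lowest, with a sum of 663, 711 and 738 FPKM in GM, 1055, 1085 and 1104 in PM and 881, 852 and 848 in DM. Of melanocyte markers 0 of 8 tested members were highest in GM and 1 lowest. The lowest was MITF, whose call against PM was lost under 15 of 18 alternatives. The melanocyte sum was 29.0, 37.9 and 16.2 FPKM in GM, 243, 229 and 255 in PM and 17.9, 19.97 and 19.7 in DM. Among these markers, HBZ and CIDEC were listed at 0 in all libraries, KRT5 in all PM and DM libraries, HBAD and ESRP1 in all PM libraries, SLC45A2 in all GM libraries and DCT in all DM libraries. The epidermal and erythroid sums were highest in GM replicate 3, as the sarcomere sum was. Among the GM libraries the neural, endothelial, adipocyte, tendon and macrophage sums were also highest in it. Sums of the smooth muscle, fibroblast and melanocyte markers were lowest in it. The part of other cell types in the muscle gene results was not tested.

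**Figure D5:**
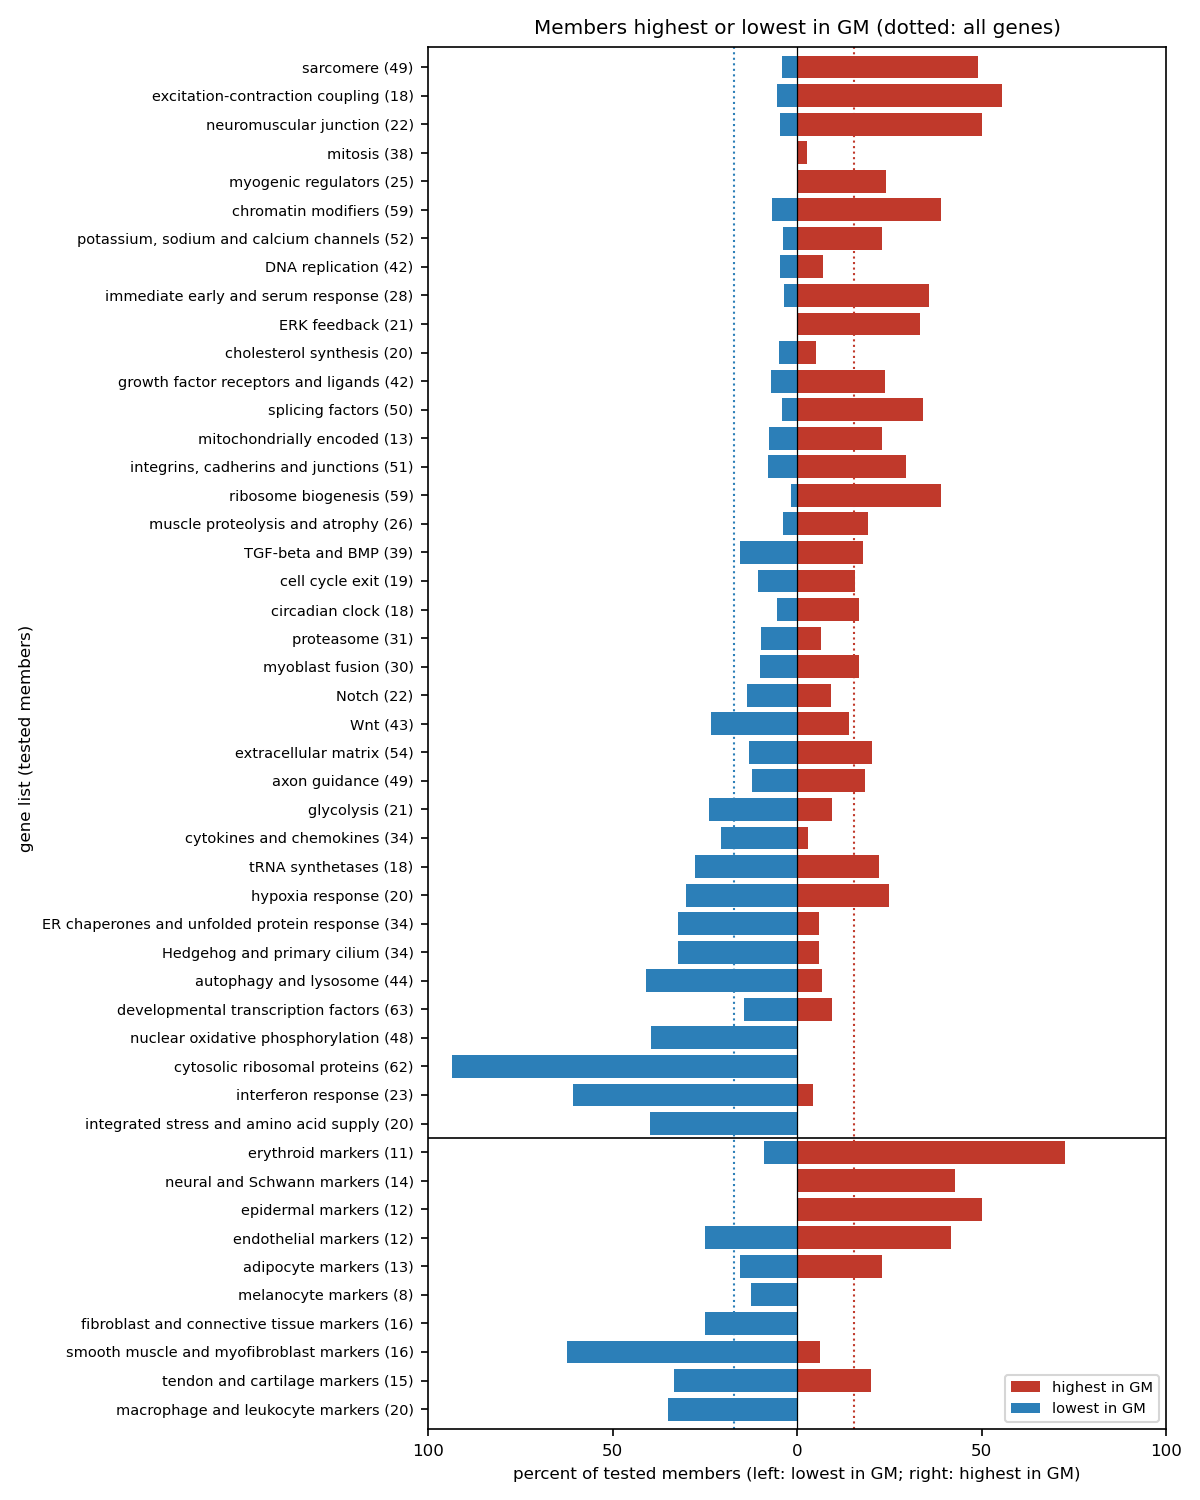
Percent of the tested members of each list that were highest in GM (red, to the right) or lowest in GM (blue, to the left), with the number tested in parentheses and the shares over all genes, 15.5% and 17.0%, as dotted lines. Muscle, ribosome assembly, chromatin and serum response lists extend to the right and ribosomal protein, interferon, lysosome and smooth muscle lists to the left.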

How the data were processed

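RNA sequencing tables of 9 libraries were analysed, 3 per group, 1 table per library. Per the labels' protocols, total RNA extracted with Trizol went into libraries made by the standard Illumina procedure. The submitters' processing notes name HISAT for alignment and HTSeq for counting reads. No version, build, annotation or strand setting is recorded for them (not given in the sources used here). Reads of overlapping genes can therefore not be separated. Each table holds a raw read count and an FPKM value per gene, as the authors deposited them, and the columns are named so per the file headers. Coordinates are as listed in the files, which give a usable symbol for 11060 of 24881 genes.

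The deposited counts of Ensembl genes were used. Other features, 1.58% to 2.12% of the reads, were left out. After filterByExpr (14796 genes) and TMM scaling, edgeR 4.0.16 (R 4.3.3) gave robust quasi-likelihood F tests from 1 fit over the 9 libraries, with no block. Calls were made at 0.05 after Benjamini-Hochberg adjustment. SEs were derived from the fold change and its F statistic, as the absolute log2 value over the root of F. The fit was tested on simulated counts in which few genes changed and the spread was the same in each group. Neither holds for these data, so that test does not speak to either point. Intervals of read ratios are exact 95% binomial intervals, and like the floor of 3 reads they cover counting error only.

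The comparison and the 48 gene lists, 10 of them cell type markers, were chosen with earlier results of these data known. By rule the named genes were the 15 largest differences in each direction (called in all 3 tests, no overlap, at least 5 FPKM), up to 3 highest and 3 lowest members per list, and MYF5, MYOD1, MYOG, MYF6, MEF2C and DES, and not all of them are printed. Genes listed without values complete a list's count. Deviations from the group means in same-numbered libraries of different groups had correlations of -0.107 to 0.101. With 3 libraries per group these cannot decide whether the samples were paired, and the labels do not say. Alternatives were DESeq2 1.42.0 and its size factors, no filter, at least 5 FPKM in 3 libraries, limma 3.58.1 on log2(FPKM + 0.1) and on log2(FPKM + 1), the length trend removed (lowess, span 0.3), a replicate block, fits of 6 libraries, a 2-fold minimum and leaving out each library.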

Additional observations from a re-analysis of the deposited data

How the results depend on the processing

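Over the 18 alternatives without a minimum fold, genes highest in GM numbered 1886 to 2871 and genes lowest 2012 to 2539, and leaving out 1 library at a time gave 2007 to 2362 and 2256 to 2539. Only a 2-fold minimum moved these counts by more than 1.5 times, to 1511 higher and 1382 lower than the average of PM and DM, 2167 higher and 1758 lower than PM, 1643 higher and 1874 lower than DM, 640 highest and 566 lowest. With the replicate block 2194 genes were highest and 2449 lowest, of which 2154 and 2410 were as before, and the pairing by number has no support in the labels. Of the log2 fold changes of named genes under the alternatives, 7658 kept their direction and their side of the threshold, 190 lost a call, 9 gained one and 3 turned. CENPF against PM was -0.29 with the length trend removed (edgeR adjusted p = 0.210), TRPM7 against PM was -0.24 in that fit (edgeR adjusted p = 0.0252), and MYOG against DM was -0.14 without GM replicate 3 (edgeR adjusted p = 0.148) and ran up to 0.41 when another library was left out. The cause was not tested. Without GM replicate 3 the macrophage list had 17 lowest members in place of 7. With at least 5 FPKM in 3 libraries, fewer low genes were tested, and 4 erythroid, 1 neural, 2 epidermal, 3 axon guidance, 5 channel, 6 matrix, 9 integrin, cadherin and junction and 3 developmental transcription factor genes were highest. With limma on log2(FPKM + 0.1), 4 Notch, 4 proteasome and 6 mitochondrially encoded genes were highest, and 3 TGF-beta and BMP, 3 axon guidance, 2 glycolysis and 2 tRNA synthetase genes were lowest. With the length trend removed, 3 muscle proteolysis and 7 mitochondrially encoded genes were highest, and 5 Notch, 7 chromatin, 7 fibroblast and 3 glycolysis genes were lowest. Depth limits the genes with few reads in a group, among them HBAA, HBAD, COCH, ERBB4, SCX, CATHL1, CCL5, SH3BGRL2 and LAPTM4B. LAPTM4B had 372 reads over GM, 20 over PM and 30 over DM.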

Other observations

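Genes highest and lowest in GM were spread unevenly over the chromosomes as the files list them. Over chromosomes with at least 50 tested genes, the share highest in GM ran from 3.64% on chromosome 22 to 22.6% on chromosome 6, beside 15.5% over all genes. The share lowest in GM was 34.1% of 164 genes on chromosome 25, where 7.32% were highest, and 30.4% of 92 genes on chromosome 33, where 10.9% were highest. On chromosome 16, with 50 tested genes, 26% were lowest and 6% highest. The median listed transcript length was 1417 bases on chromosome 25, 1433.5 on chromosome 16 and 1573.5 on chromosome 33. It was 1900.5 bases on chromosome 6 and 1920 on chromosome 22, beside 1838 over all genes. The part of gene length in these shares was not tested.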
